A study of Homo sapiens with 6 samples.

Results

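The U4 and U5 small nuclear RNAs (snRNAs) were examined in the small-RNA sequencing of K562 cells after over-expression of the transcription factor RUNX1. The members were taken by name: RNU4-1 and RNU4-2 for U4, and RNU5A-1, RNU5B-1, RNU5D-1, RNU5E-1 and RNU5F-1 for U5. These are 7 of the 28846 small RNAs in the count tables, of which 1905 carry an snRNA name. K562 is an erythroleukemia cell line that can be driven towards the erythroid or megakaryocytic lineage. The cells of both groups had been transduced with the lentiviral vector SIEW and carry GFP. Control cells received the empty vector and RUNX1 cells received SIEW RUNX1, which adds human RUNX1, with 3 independent transductions of each. RNA was harvested after 10 days in culture. RUNX1 has no row in a small-RNA table, and its level was not checked here.

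U4 and U5 belong to the U4/U6.U5 tri-snRNP, the particle that joins the pre-spliceosome before splicing of an mRNA precursor begins. U4 pairs with U6 and holds it inactive until the helicase BRR2 unwinds the pair. U5 holds the exon ends through the loop at its top and remains at the catalytic centre through both steps of splicing. Both are made by RNA polymerase II and carry a ring of Sm proteins, and human cells hold several U5 genes whose products differ mainly beyond the loop.

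The sequences of the U4 genes are shown first because counts of such close copies depend on the bases in which they differ. They are the transcripts of GENCODE 29 on GRCh38, written 5′ to 3′, with capitals at the positions that differ between the 2 genes.
RNU4-1: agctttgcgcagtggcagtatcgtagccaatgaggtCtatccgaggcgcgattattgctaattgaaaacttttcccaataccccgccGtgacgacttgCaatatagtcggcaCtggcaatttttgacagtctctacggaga
RNU4-2: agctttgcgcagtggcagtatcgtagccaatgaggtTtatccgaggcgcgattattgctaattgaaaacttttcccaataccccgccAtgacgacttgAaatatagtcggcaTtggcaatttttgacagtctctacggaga

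RNU4-1 and RNU4-2 are both 141 bases long and identical at 137 positions (97.2%). Counted from 1 at the 5′ end, RNU4-2 and RNU4-1 differ by T37C, A88G, A99C and T113C, and the longest stretch without a difference runs over 50 bases. RNU5A-1 and RNU5B-1 were the closest U5 pair, with 94.0% identity in the alignment, followed by RNU5A-1 and RNU5E-1 with 87.5%. RNU5D-1 and RNU5F-1, which lie close together in the genome, were the least alike, with 76.9%. The U4 genes hold the letters AATTTTTGA of the Sm site at positions 118 to 126. Searched on the sense strand only, these letters were in 51 of 1900 annotated snRNA transcripts (2.68%).

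On GRCh38, RNU4-1 lies at chr12:120293097-120293237 and RNU4-2 at chr12:120291763-120291903, both on the minus strand and 1193 bases apart. RNU5A-1 at chr15:65296051-65296166 and RNU5B-1 at chr15:65304677-65304792 lie on the plus strand with 8510 bases between them. RNU5D-1 at chr1:44731055-44731170 and RNU5F-1 at chr1:44721786-44721902 lie on the minus strand with 9152 bases between them. RNU5E-1 at chr1:11908152-11908271 stands alone on the plus strand. RNU5A-1 sits in an intron of PARP16 and RNU5F-1 in an intron of ARMH1, each on the opposite strand, and RNU5E-1 overlaps an exon of the lincRNA AL021155.2 on its own strand. The other 4 overlap no annotated gene. The submitters' processing notes name hg19, and the count tables hold no coordinates, so positions were matched by gene name.

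A read of 51 nt is shorter than any of these snRNAs, and a short fragment can be placed only where it is unlike other copies. Each snRNA was therefore divided into all its windows of 22 bases, and the windows found in no other annotated snRNA gene were counted. Only 31 of 120 windows of RNU4-1 and 31 of 120 of RNU4-2 (25.8% each) were unlike every other snRNA gene. In U5 the share went from 42.1% in RNU5A-1 and 48.4% in RNU5B-1 over 53.7% in RNU5D-1 and 55.6% in RNU5E-1 to 79.2% in RNU5F-1. These shares depend on the window length. With 30 bases they were 46.4% in RNU4-1, 57.1% in RNU4-2 and 58.6% to 86.4% in the U5 genes. With 18 bases they were 12.9%, 15.3% and 28.3% to 76%. How reads matching several genes were counted is not given in the sources used here. The division of counts between RNU4-1 and RNU4-2, and between the U5 genes, is therefore uncertain, and the 2 family sums are given beside the single genes. The 4 U1 genes RNU1-1 to RNU1-4, identical in sequence, had 2, 0, 0 and 0 counts in all. Whether reads matching several genes were left out was not tested. If they were, the family sums lack them as well.

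Total counts were 1618248 to 6193319 in the control and 7918551 to 15245007 in the RUNX1 samples, so that 3 counts, taken as the floor, are 1.97e-05% of the counts in the deepest library and 0.000185% in the shallowest. All 7 members were counted in all 6 samples and passed the filter on low counts, with 538 counts in all for RNU4-1, 588 for RNU5D-1 and 13351 for RNU5E-1. Counts were scaled by TMM, which sets library sizes so that most small RNAs balance, and are given as CPM, counts relative to the scaled library size. The TMM factors were 1.23 to 1.31 in control and 0.735 to 0.866 in RUNX1 samples, in which microRNAs took 81.4% to 82.1% and 89.5% to 91.9% of the counts, respectively. Fold changes therefore move with the scaling chosen. RUNX1 replicate 3 stood apart from the other RUNX1 samples, with 451 and 314 times the chi-square that counting error alone gives against replicates 1 and 2, compared with 56.3 between those and 9.62 to 21.9 among control samples. This measure grows with depth, so the values among the control samples, which had fewer counts, are not directly comparable. Where RUNX1 replicate 3 decides a call, the value without it is given as well. In these bulk samples, a smaller number of cells with an RNA and less RNA per cell cannot be told apart. All 4 erythroid marker microRNAs were detected, with a summed level of 4427 to 5062 CPM in control and 2332 to 3696 CPM in RUNX1 samples. The list moved both ways, with miR-451a, miR-144-5p and miR-486-5p called lower and miR-144-3p called higher. Of 7 markers of liver, neuron and muscle, 6 had a row, and miR-124-3p and miR-206 had no count. Their sum was 0.248 to 1.32 CPM in control and 5.12 to 7.72 CPM in RUNX1 samples, mostly miR-1, a microRNA of muscle. The part of either marker list in the changes below was not tested.

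With TMM scaling, U5 counts were lower in the RUNX1 samples, while the change of U4 was within the spread between replicates. RNU5B-1, RNU5D-1, RNU5E-1 and RNU5F-1 fell, by 1.02 to 2.10 on the log2 scale, and RNU5A-1, RNU4-1 and RNU4-2 did not pass the thresholds (P-value under 0.05 and a log2 change of 0.5 or more in either direction). Of the 947 small RNAs tested, 57.6% passed these thresholds, 29.6% lower and 28% higher, so that 4 changed members of 7 is close to the share of all small RNAs, while none of the 4 was higher. The median log2 fold change was -1.02 over the 7 members and -0.06 over all small RNAs tested. From the lowest fold change upwards, RNU5E-1 ranked 81 of 947, RNU5F-1 87, RNU5D-1 94, RNU5B-1 200 and RNU5A-1 385, whereas RNU4-2 ranked 576 and RNU4-1 617.

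The sum of the 5 U5 genes, in order of replicate, was 866, 852 and 888 CPM with the empty vector against 232, 241 and 373 CPM with RUNX1. Every RUNX1 sample lay below every control sample, and the highest of them was replicate 3. The sum fell by 1.63 on the log2 scale (SE 0.191, n = 3 each, edgeR adjusted P = 9.19e-05). As a share of all counts, which needs no scaling factor, U5 took 0.111% ± 0.00169 in the control and 0.0225% ± 0.00845 in the RUNX1 group (SD of 3 samples), a 4.93-fold difference of the means, or -2.30 on the log2 scale. This size depends on the denominator: the log2 ratio was -1.34 with microRNAs left out of the total and -1.26 as a share of snRNA counts. The exact two-sided permutation test gave p = 0.1 for this share, the smallest p that 3 samples against 3 allow.

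The sum of RNU4-1 and RNU4-2, in the same order, was 40.6, 50.3 and 39.2 CPM with the empty vector against 60.7, 64.6 and 30.5 CPM with RUNX1. RUNX1 replicates 1 and 2 were above all control samples and replicate 3 was below all of them, so the groups overlapped. The log2 fold change of 0.25 (SE 0.265, n = 3 each) was within the spread between replicates (edgeR adjusted P = 0.431). Without RUNX1 replicate 3 it was 0.60 (SE 0.132, adjusted P = 0.000185), and RNU4-1 and RNU4-2 were both called higher. In that fit 63.2% of all small RNAs were called, 31.3% lower and 31.9% higher. The direction also depended on the scaling. With library size alone the log2 fold change of the U4 sum was -0.48, a setting under which the median of all tested small RNAs moved to -0.76. U4 took 0.00555% ± 0.000922 of all counts in the control and 0.00399% ± 0.00118 in the RUNX1 group (SD of 3 samples), with p = 0.1 in the exact permutation test. In this share every RUNX1 sample lay below every control sample, narrowly at 0.00475% in RUNX1 replicate 2 against 0.00481% in control replicate 3. With microRNAs left out of the total, its log2 ratio of RUNX1 to control turned from -0.47 to 0.57.

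**Figure D1:**
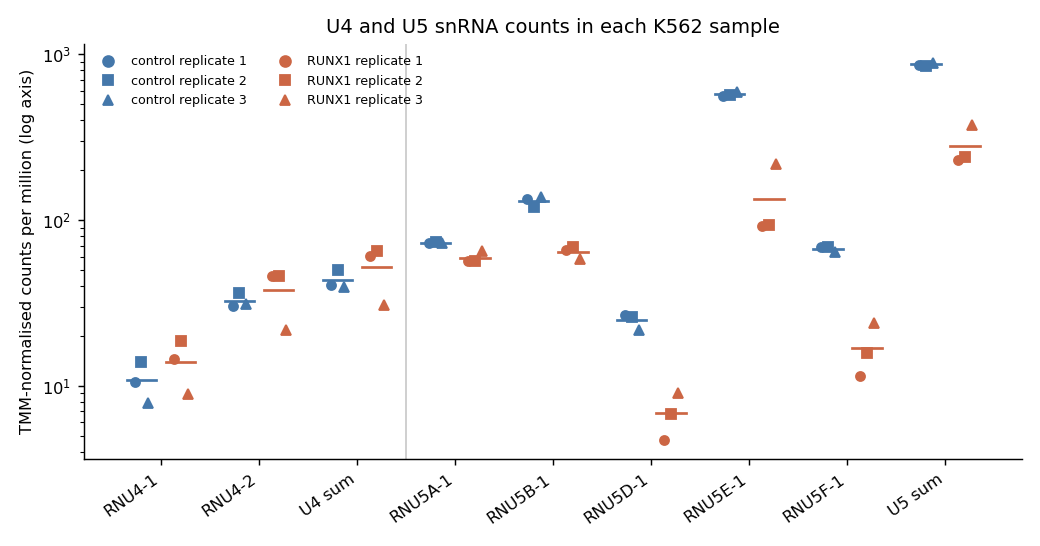
TMM-normalised CPM (log axis) of each U4 and U5 gene and of the 2 family sums in the 3 control (blue) and 3 RUNX1 samples (orange); bars are group means. The U5 sum lies between 852 and 888 CPM in control and between 232 and 373 CPM in RUNX1 samples, and the U4 sum of RUNX1 replicate 3, 30.5 CPM, lies below all other samples.

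The 2 families were compared by the ratio of their counts within each sample, in which the scaling cancels. The share of 22-base windows found in no other snRNA gene does not cancel, at 25.8% in the U4 genes and 42.1% to 79.2% in the U5 genes. The ratio is therefore one of counts, to be compared between samples, and not the abundance of U5 relative to U4. For each U4 count there were 21.3, 17.0 and 22.6 U5 counts in the control samples. In the RUNX1 samples there were 3.82, 3.73 and 12.2. Replicates 1 and 2 were nearly equal and replicate 3 lay between them and the control samples, without overlap of the groups. The log2 ratio averaged 4.33 ± 0.22 with the empty vector and 2.48 ± 0.98 with RUNX1 (SD of 3 samples), and the difference of -1.85 had p = 0.1 in the exact permutation test. Leaving out each sample in turn gave differences from -2.42, without RUNX1 replicate 3, to -1.56.

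RNU4-2 had more counts than RNU4-1 in every sample, though the division between such close copies is uncertain. It had 30.1, 36.3 and 31.3 CPM in the control and 46.2, 46.1 and 21.6 CPM in the RUNX1 samples, with a log2 fold change of 0.21 (SE 0.271, adjusted P = 0.519). RNU4-1 had 10.5, 13.9 and 7.90 CPM in the control and 14.5, 18.6 and 8.90 CPM in the RUNX1 samples, with a log2 fold change of 0.37 (SE 0.307, adjusted P = 0.331). In both genes the groups overlapped, and RUNX1 replicate 3 was the lowest RUNX1 sample. RNU4-2 held 75.4% ± 3.93 of the U4 counts with the empty vector and 72.7% ± 2.95 with RUNX1 (SD of 3 samples), a difference within the spread between replicates (exact permutation test, p = 0.5). The 95% Wilson interval of this share was 3.15 to 9.17 points wide on either side, and intervals and floors cover counting error only.

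Of the U5 genes, RNU5E-1 was the most counted. It had 563, 564 and 591 CPM in the control and 92.3, 93.7 and 217 CPM in the RUNX1 samples. RUNX1 replicate 3 stood far above the other RUNX1 samples and still below every control sample. RNU5E-1 fell by 2.10 on the log2 scale (SE 0.313, adjusted P = 0.00041), and by 2.54 without replicate 3. Its fold change was close to that of RNU5F-1, and without RUNX1 replicate 2 it was the smaller, with -1.87 against -1.91.

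RNU5F-1 and RNU5D-1, the neighbours on chromosome 1, fell to a similar extent. RNU5F-1 had 68.4, 68.3 and 64.4 CPM in the control and 11.4, 15.7 and 23.8 CPM in the RUNX1 samples, a log2 fold change of -1.99 (SE 0.243, adjusted P = 0.000119). RNU5D-1 was the least counted U5 gene, with 26.8, 26.0 and 21.6 CPM in the control and 4.68, 6.72 and 9.05 CPM in the RUNX1 samples, a log2 fold change of -1.88 (SE 0.249, adjusted P = 0.000197). Neither gene had overlapping groups, and in both RUNX1 replicate 3 was again the highest RUNX1 sample. The raw counts behind the RUNX1 values of RNU5D-1 were 54, 42 and 62.

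RNU5A-1 and RNU5B-1, the closest copies, had smaller fold changes. RNU5B-1 had 135, 120 and 138 CPM in the control and 66.2, 68.4 and 58.5 CPM in the RUNX1 samples, a log2 fold change of -1.02 (SE 0.133, adjusted P = 0.000177). Here RUNX1 replicate 3 was the lowest of its group, not the highest. RNU5A-1 had 73.1, 73.3 and 72.7 CPM in the control and 57.0, 56.3 and 64.6 CPM in the RUNX1 samples. Its log2 fold change of -0.30 (SE 0.127, edgeR adjusted P = 0.0681) was below the size required, although every RUNX1 sample lay below every control sample. Groups without overlap, RUNX1 lower, were seen in all 5 U5 genes and in 33.5% of all small RNAs tested. With library size alone, a fit in which 55% of all small RNAs were called lower and 12.7% higher, RNU5A-1 was called lower as well, with a log2 fold change of -0.99.

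**Figure D2:**
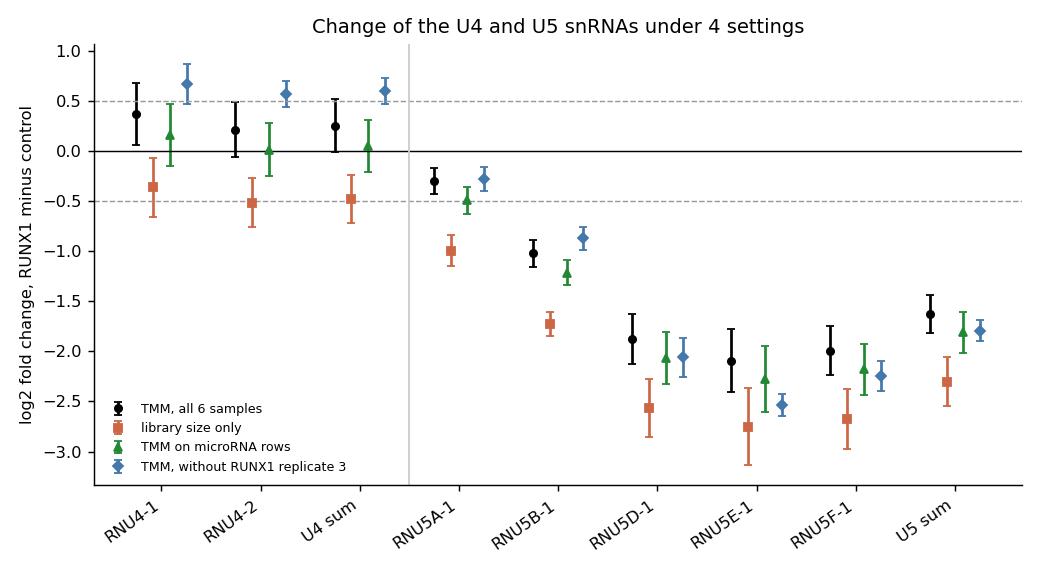
Log2 fold change (RUNX1 minus control) of each gene and family sum with its standard error under 4 settings; dashed lines mark 0.5 in either direction. The U5 sum stays between -2.30 and -1.63 in these settings, whereas the U4 sum lies at 0.25 with TMM, at -0.48 with library size only and at 0.60 without RUNX1 replicate 3.

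The makeup of the U5 counts differed between the groups. RNU5E-1 held 65.0%, 66.2% and 66.6% of the U5 counts in the control and 39.8%, 38.9% and 58.1% in the RUNX1 samples. RNU5A-1 held 8.44%, 8.61% and 8.19% in the control and 24.6%, 23.4% and 17.3% in the RUNX1 samples. The share of RNU5E-1 was thus lower, and that of RNU5A-1 higher, in every RUNX1 sample than in any control sample. RNU5B-1 held 15.6%, 14.1% and 15.6% in the control and 28.6%, 28.4% and 15.7% in the RUNX1 samples. RUNX1 replicate 3 was above the control range by less than its Wilson interval, so the separation of RNU5B-1 rests on RUNX1 replicates 1 and 2. RNU5F-1 went from 7.72% ± 0.413 to 5.94% ± 0.870 and RNU5D-1 from 2.86% ± 0.371 to 2.41% ± 0.384 (SD of 3 samples per group), the latter with overlap. The intervals of RNU5F-1 in RUNX1 replicates 2 (5.37% to 7.87%) and 3 (5.50% to 7.40%) reached the lowest control value, 7.25%. The separation of RNU5F-1 thus rests on RUNX1 replicate 1. The groups were separate in 4 of the 7 within-family shares, and each of these 4 had p = 0.1 in the exact permutation test, 0.175 after Benjamini-Hochberg adjustment over the 7 members. With pseudogene rows added to the sums, 3 of the shares were separate. Shares within a family add up to the whole, so a lower share of 1 gene raises those of others, and the 4 are not separate results. RNU5A-1 rose in share while its mean fell from 73.0 to 59.3 CPM. How often such shares separate among other small RNAs was not tested.

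**Figure D3:**
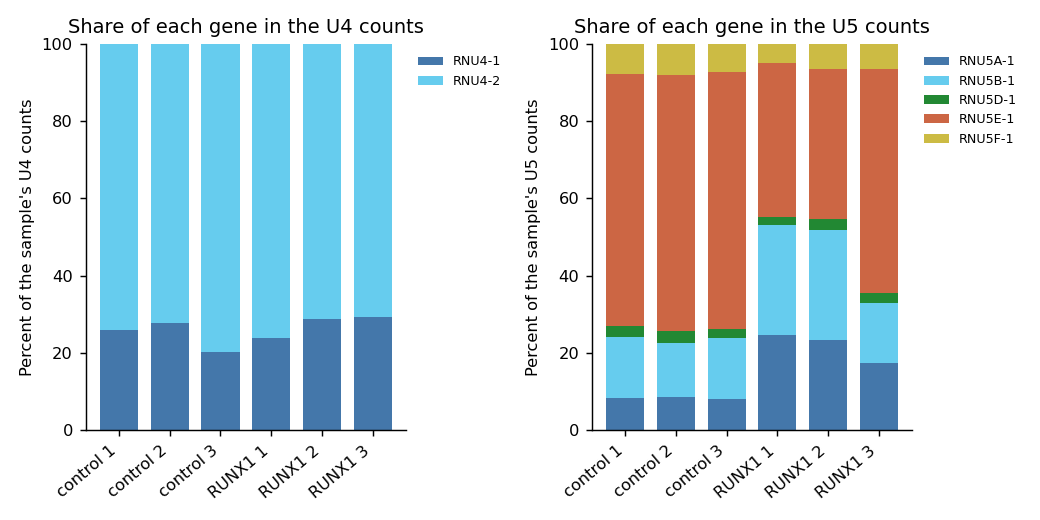
Percent of the U4 counts (left) and of the U5 counts (right) held by each gene in the 3 control and 3 RUNX1 samples. RNU5E-1 takes 65.0% to 66.6% of the U5 counts in control and 38.9% to 58.1% in RUNX1 samples, and RNU4-2 takes 70.8% to 79.9% of the U4 counts in all samples.

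To set the genes side by side, CPM were divided by the annotated length and given per 100 bases. Reads cover only part of each snRNA. The share of 22-base windows found in no other snRNA gene ran from 25.8% in the U4 genes to 79.2% in RNU5F-1. Neither was corrected for, so the order below is one of counts and need not be that of the snRNAs in the cell. In control samples the mean level was 477 for RNU5E-1, 113 for RNU5B-1, 63.0 for RNU5A-1, 57.3 for RNU5F-1, 23.1 for RNU4-2, 21.4 for RNU5D-1 and 7.64 for RNU4-1. Of these neighbours, RNU4-2 and RNU5D-1 overlapped between samples and the others did not. In RUNX1 samples the order was RNU5E-1 with 112, RNU5B-1 with 55.5, RNU5A-1 with 51.1, RNU4-2 with 26.9, RNU5F-1 with 14.5, RNU4-1 with 9.91 and RNU5D-1 with 5.87. Here RNU5E-1 was separate from RNU5B-1 and RNU5A-1 from RNU4-2, while all other neighbours overlapped. RNU5F-1 and RNU5D-1 thus stood below RNU4-2 and RNU4-1, respectively, in the mean of the RUNX1 samples.

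Of the 35 snRNAs tested, 24 were lower, 2 were higher and 9 did not pass, and outside the 7 members the counts were 20, 2 and 6 of 28, with a median log2 fold change of -1.72. These 28 rows were taken by an snRNA name and include U5 pseudogene rows. The U5 genes with the largest fold changes lay near the median of these rows. The listed snRNA genes among them went both ways, with -1.68 for RNU7-1, -0.41 for RNU11, 0.51 for RNU2-2P and 0.90 for RNU12. The U5 share of all snRNA counts was 46.0% ± 2.0 with the empty vector and 19.2% ± 2.42 with RUNX1 (SD of 3 samples; p = 0.1, exact permutation test). The U4 share was 2.25%, 2.59% and 2.04% in the control and 4.42%, 5.09% and 1.78% in the RUNX1 samples, so that the overlap came from RUNX1 replicate 3 alone (p = 0.4, exact permutation test). Without it, all RUNX1 samples lay above all control samples, by 2.46 points in the mean. This was at the smallest p that 3 samples against 2 allow (p = 0.2, exact permutation test). U5 is part of the same total, with 46.0% in the control and 17.9% in the 2 remaining RUNX1 samples. A smaller U5 share raises the U4 share, and U4 with U5 left out of the total was not tested.

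The other major snRNAs were mostly not measurable. RNU1-1, a gene of U1, which binds the 5′ splice site, had 2 counts in all, and RNU1-2, RNU1-3 and RNU1-4 had none. The 4 genes are identical in sequence. RNU6-1, RNU6-2, RNU6-7, RNU6-8 and RNU6-9, genes of U6, the pairing partner of U4, had 2, 21, 0, 2 and 12 counts in all, and RNU2-1 had no row. Of the 11 listed genes only RNU2-2P, a gene of U2, which binds the branch site, was tested, with a log2 fold change of 0.51 (SE 0.235, adjusted P = 0.0878) and overlap of the groups. The level of U4 relative to U6 could therefore not be measured.

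Among snRNAs of the minor spliceosome, RNU12, which pairs with the branch site of minor introns, rose from 319 ± 16.5 to 593 ± 95.8 CPM (SD of 3 samples), with a log2 fold change of 0.90 (SE 0.147, adjusted P = 0.000711). RNU11, which binds the 5′ splice site of those introns, had 160, 187 and 164 CPM in the control and 83.0, 91.0 and 212 CPM in the RUNX1 samples, with a log2 fold change of -0.41 (SE 0.323, adjusted P = 0.308). Only RUNX1 replicate 3 was not below the control samples, and without it RNU11 was called lower (-0.89, SE 0.115, adjusted P = 7.11e-08). RNU4ATAC, the minor counterpart of U4, had no row, and RNU6ATAC had 14 counts in all and was not tested. RNU7-1, the snRNA of histone mRNA 3′ end processing, fell from 67.7 ± 0.731 to 21.3 ± 9.85 CPM (SD of 3 samples), with a log2 fold change of -1.68 (SE 0.278, adjusted P = 0.000735), close to that of the U5 sum. RN7SK had no row. Of the 4 listed scaRNAs, which guide base and ribose modification of U4 or U5 in the Cajal body, SCARNA6 fell (-0.72, SE 0.183, adjusted P = 0.00804) and SCARNA10 rose (0.86, SE 0.244, adjusted P = 0.0137) with overlapping groups. SCARNA5 had a log2 fold change of 0.25 (SE 0.128, adjusted P = 0.119), and SCARNA17, with 23 counts in all, was not tested.

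Most pseudogene rows had no count, but the U5 row RNU5E-6P had more counts than RNU5D-1 and RNU4-1. The other U5 rows that were tested, RNU5E-4P with 296 and RNU5A-8P with 163 counts in all, had fewer than any member. Of 87 U4 pseudogene rows 70 had no count in any sample, and the most counted, RNU4-8P, RNU4-36P and RNU4-58P, had 33, 16 and 5 counts in all and were not tested. Of 26 U5 pseudogene rows 14 had no count and 3 were tested. RNU5E-6P, with 887 counts in all against 588 for RNU5D-1 and 538 for RNU4-1, fell from 35.8 ± 1.24 to 10.6 ± 4.33 CPM (SD of 3 samples), with a log2 fold change of -1.76 (SE 0.256, adjusted P = 0.000351). RNU5A-8P was called lower by the P-value (log2 fold change -0.68, SE 0.271), with an edgeR adjusted P = 0.0567. RNU5E-4P had 9.08, 12.8 and 9.21 CPM in the control and 1.30, 2.88 and 10.4 CPM in the RUNX1 samples, with a log2 fold change of -1.18 (SE 0.599, adjusted P = 0.118). Its groups overlapped through RUNX1 replicate 3 alone. Without that sample RNU5E-4P was called lower (-2.40, SE 0.296, adjusted P = 3.17e-08), and RNU5A-8P was not called (-0.59, SE 0.293, adjusted P = 0.0732). Whether their reads come from the pseudogenes or from the U5 genes was not tested.

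**Figure D4:**
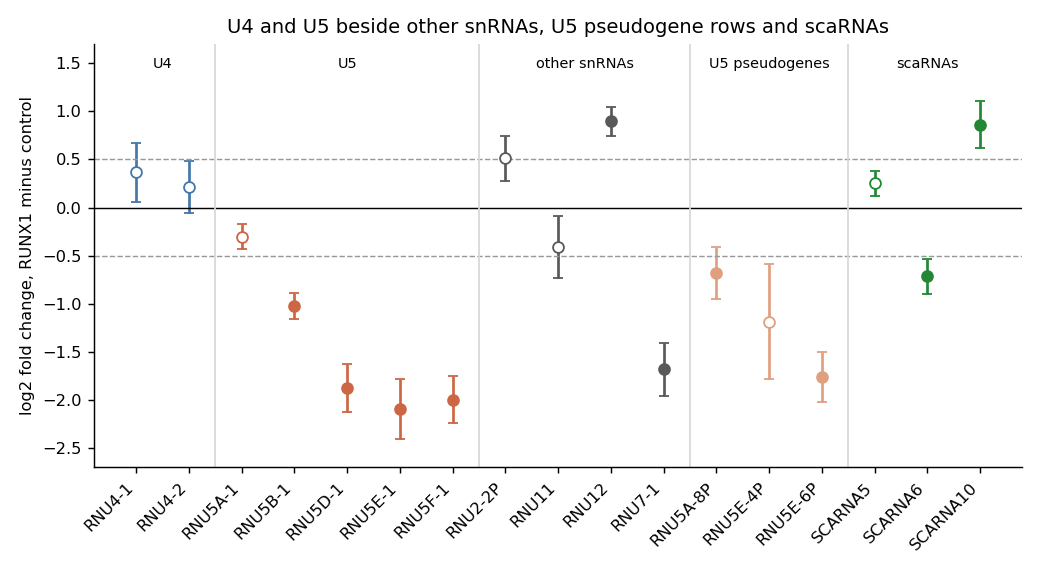
Log2 fold change (RUNX1 minus control) with its standard error for the U4 and U5 genes, the other snRNAs named in the text, U5 pseudogene rows and scaRNAs; filled points passed the thresholds and dashed lines mark 0.5 in either direction. RNU5E-1 at -2.10 and RNU12 at 0.90 are the lowest and the highest of the points.

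The rows most like each family sum were sought by Pearson's r of log2 CPM over the 6 samples. Within a sample all rows share its library and depth. For the U5 sum these were SNORD33 (r = 0.9992), SNORD53_SNORD92 (0.9983), a piRNA-annotated entry (0.9978), SNORD38A (0.9978) and SNORD83A (0.9973). All 5 were lower in RUNX1 samples, with log2 fold changes of -2.98, -1.49, -1.64, -2.22 and -2.11. For the U4 sum these were SNORA34 (r = 0.9433), miR-494-3p (0.9183), miR-501-5p (0.8975), miR-615-3p (0.8926) and SNORA74 (0.8863), and none of them passed the thresholds. As the samples fall into 2 groups, r of the U5 sum includes the difference between the groups and the position of RUNX1 replicate 3.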

How the data were processed

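Small RNA of K562 cells was sequenced as single reads of 51 nt from TruSeq Small RNA libraries made from 1000 ng of total RNA. The authors demultiplexed with CASAVA 1.8.2 and deposited whole-number counts per annotated small RNA, without normalization. The aligner and the handling of reads that match several genes are not given in the sources used here. The 5 rows that name no feature hold 0 counts. Groups and replicates follow the sample titles in the labels. In the library names, RUNX1 replicates 1 and 2 share a number, and the letter differs between control and RUNX1. If the letters mark preparations, their effect and that of RUNX1 cannot be told apart.

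Counts were tested in R 4.3.3 with edgeR 4.0.16 (filterByExpr with minimum count 10 and minimum total 15, TMM, glmQLFit and glmQLFTest), across all 947 rows that passed. Standard errors were obtained from the log2 fold change and the root of F, and P-values were adjusted by Benjamini-Hochberg over all rows tested. Thresholds follow the study's methods. For the family sums, member rows were replaced by their 2 sums. Shares were compared by two-sided exact permutation tests with SciPy 1.17.1. Transcripts of GENCODE 29 were aligned with MAFFT 7.526. The sequences of the U5 genes are not reported here. The scripts were tested on simulated data.

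The members and lists were chosen with earlier results of these data known. Named are the 7 members, their sums, the listed snRNAs, the scaRNAs, the 3 most counted pseudogene rows of each family and the 5 rows closest to each sum. Alternatives were DESeq2 1.42.0, RLE factors, library size only, TMM on microRNAs or without snRNAs, other count filters, the replicate number as a block, stricter call rules, other denominators, pseudogene rows added, and each sample left out.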

Additional observations from a re-analysis of the deposited data

How the results depend on the processing

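RNU5B-1, RNU5D-1, RNU5E-1, RNU5F-1 and the U5 sum kept their direction and call under all alternatives run, 14 for each gene and 15 for the sum. Their log2 fold changes ranged from -1.73 to -0.87, -2.57 to -1.62, -2.75 to -1.87, -2.67 to -1.74 and -2.30 to -1.49. The U4 results did not. With library size only, RNU4-1 (-0.36), RNU4-2 (-0.52) and the U4 sum (-0.48) turned negative without passing the thresholds, RNU5A-1 was called lower (-0.99), and 521 small RNAs were lower and 120 higher (81.3% lower, against 51.4% with TMM). Without RUNX1 replicate 3, RNU4-1 (0.67), RNU4-2 (0.57) and the U4 sum (0.60) were called higher. The log2 ratio of the U4 share of counts, RUNX1 to control, was -0.47, and became 0.57 with microRNAs left out of the total, 0.71 as a share of snRNA counts and -0.094 without miR-10a-5p, the most abundant microRNA. For the U5 share, -2.30 became -1.34, -1.26 and -1.94. As a share of snRNA counts without RUNX1 replicate 3, an alternative chosen after seeing the data like the values without that sample for RNU11 and the pseudogene rows, they were 1.05 for U4 and -1.36 for U5. The snRNA total includes the U5 counts, so the U4 and U5 shares of it are not independent. The cause of these shifts was not tested. Leaving out each sample gave 521 to 612 small RNAs called of 969 to 1020 tested, and 4 to 6 members called. The 6 were called without RUNX1 replicate 3, where 63.2% of all small RNAs were called. The log2 fold change was 0.12 to 0.60 for the U4 sum and -1.79 to -1.49 for the U5 sum. Log2 ratios were -0.62 to -0.25 for the U4 share, -2.65 to -2.15 for the U5 share and -2.42 to -1.56 for U5 to U4. Within-family shares were separate in 4 to 6 members, against 3 with pseudogene rows added. Groups of 3 samples against 2 separate more easily than 3 against 3. Testing every row with a count gave 761 called of 3084, against 545 of 947, and requiring an adjusted P-value under 0.05 and a change of 1 on the log2 scale gave 364.

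Samples of the same number did not deviate together (r = -0.02, -0.07 and 0.03), so the replicate numbers were not taken as pairs. With the replicate number as a block, 546 small RNAs and the same number of members, 4, were called, and the log2 fold change was 0.19 for the U4 sum and -1.66 for the U5 sum.

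Depth limits RNU4-1 and RNU5D-1 most, with 22 to 167 and 42 to 210 counts a sample. With 3 samples against 3 a permutation test cannot go below 0.1.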
